A study of Mus musculus with 64 samples.

Results

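Transcripts of the circadian clock were followed in mouse bone marrow macrophages given interferon or lipopolysaccharide (LPS). The list held 10 genes, and 8 of them had a probe set assigned to their symbol alone: Per1, Per2, Per3, Cry1, Nr1d2, Clock, Bhlhe40 and Bhlhe41. Nr1d1 and Dbp were covered only by probe sets shared with another symbol (2 and 1 probe sets), so no value is given for them. The 8 genes were 8 of 18820 genes measured, with the brightest probe set used for each. Nr1d2 had 2 probe sets, of which the dimmer had a mean log2 intensity of 3.00 and was not used. The brighter one had a mean of 8.33.

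Cells were grown from the femurs of male mice, 7 to 8 weeks old, of the strains BALB/c and C57BL/6, in CSF1 at 10000 U/ml, the growth factor of this lineage. On day 7 the BALB/c wells were given either interferon, IFN-beta or IFN-gamma, at 10 U/ml, or else LPS at 5 ng/ml, while the C57BL/6 wells were given LPS in 1 of 3 doses, 50, 5 and 0.5 ng/ml. RNA was taken at 1, 2, 4, 8 and 24 h of each of these 6 courses and from 1 untreated group per strain at 0 h, which gave 32 groups of 2 wells and 64 arrays. IFN-beta is a type I interferon and IFN-gamma the type II interferon, while LPS comes from the outer membrane of bacteria and is recognised by the receptor Tlr4. Untreated wells at later times were not analysed here, so every change from 0 h includes what changed in culture over that time. The replicates were separate wells, and the labels do not say that they came from separate mice, so p-values measure the spread between wells.

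The mammalian clock is a loop of transcription and repression. CLOCK pairs with BMAL1 and binds E-boxes in target promoters, and the products of the Per and Cry genes, themselves targets, gather and repress that pair. Nr1d2 encodes REV-ERB beta, a nuclear receptor that represses transcription through ROR elements, and Bhlhe40 and Bhlhe41 (DEC1 and DEC2) encode E-box binding repressors that feed back on the same targets. Per1, Per2 and Bhlhe40 are also known as genes that respond quickly to signals from outside the cell, and macrophages are a cell type with a well described clock.

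The promoters of the genes that carry the results below are shown first, 250 bases before to 50 bases after the start site, from RefSeq on GRCm38.p6. Of the 8 genes 6 were matched there, with 9 promoters in all, and Per2 and Bhlhe40 were not among them. Capitals mark motifs found on either strand: the E-box CACGTG, its variant CACGTT, the D-box TTATGNAA, the ROR and REV-ERB motif TNGGTCA, and TGACG, which is also the first part of the cAMP response motif TGACGTCA. Per1 (chr11:69098699-69098998, plus strand, the first of its start sites), Per3 (chr4:151044616-151044915, minus strand) and Bhlhe41 (chr6:145865371-145865670, minus strand) are shown because their transcripts fell in at least 1 course, and Nr1d2 (chr14:18239057-18239356, minus strand) because its transcript rose under IFN-beta. Each is written in the direction of transcription.
Per1: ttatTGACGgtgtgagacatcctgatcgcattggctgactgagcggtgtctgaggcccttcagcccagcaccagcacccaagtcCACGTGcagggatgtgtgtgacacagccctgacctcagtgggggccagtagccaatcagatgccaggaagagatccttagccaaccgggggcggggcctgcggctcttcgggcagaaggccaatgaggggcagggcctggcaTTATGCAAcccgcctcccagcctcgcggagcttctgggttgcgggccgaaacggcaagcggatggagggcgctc
Per3: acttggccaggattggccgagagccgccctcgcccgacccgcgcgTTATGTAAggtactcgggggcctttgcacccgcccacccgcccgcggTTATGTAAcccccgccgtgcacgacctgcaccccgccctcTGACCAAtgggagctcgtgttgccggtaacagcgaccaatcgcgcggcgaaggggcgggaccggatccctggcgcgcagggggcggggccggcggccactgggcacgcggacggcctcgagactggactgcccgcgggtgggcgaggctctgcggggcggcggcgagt
Bhlhe41: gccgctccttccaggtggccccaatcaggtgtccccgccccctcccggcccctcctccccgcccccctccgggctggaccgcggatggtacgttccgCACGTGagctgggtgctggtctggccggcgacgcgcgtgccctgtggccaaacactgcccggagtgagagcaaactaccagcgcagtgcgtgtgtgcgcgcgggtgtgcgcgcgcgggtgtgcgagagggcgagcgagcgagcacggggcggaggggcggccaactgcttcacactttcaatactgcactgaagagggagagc
Nr1d2: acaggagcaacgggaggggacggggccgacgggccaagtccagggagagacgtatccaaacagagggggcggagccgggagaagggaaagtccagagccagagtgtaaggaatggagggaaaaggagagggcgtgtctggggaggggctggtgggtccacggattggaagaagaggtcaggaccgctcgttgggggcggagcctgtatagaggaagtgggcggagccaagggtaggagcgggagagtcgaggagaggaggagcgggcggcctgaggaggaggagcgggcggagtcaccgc
The Per1 promoter shown held an E-box beginning 166 bases before the start site, a D-box at 24 bases and TGACG at 246 bases. The other Per1 start site, not shown, held TGACG at 132 bases and none of the other motifs. The Per3 promoter held D-boxes at 205 and 158 bases and TNGGTCA at 118 bases, and the Bhlhe41 promoter an E-box at 153 bases. The E-box was found in 7.15% of 32851 promoters of this length, CACGTT in 4.68%, the D-box in 3.38%, TNGGTCA in 11% and TGACG in 20.8%. None of these letters was found in the Nr1d2 window.

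The values are log2 of the deposited intensity, and each change subtracts 1 group mean from another and stands with its SE (n = 2 arrays in each). A gene was called where limma's adjusted p over all 18820 genes was under 0.05 and the difference reached 1 log2. The F-test of a course takes its 5 times together, and single times were also tested against 0 h on their own. Adjusted p-values of comparisons between courses, doses or strains, and of changes counted from 1 h, belong to the F-test over the times together, not to the single time whose difference stands beside them. Every array value of the 8 genes lay above 4.19, the 40th percentile of all log2 values. Medians of the intensity per array ran from 25.6 to 29.0. Precision is limited by having 2 arrays in a group. Of 11 macrophage markers 10 were measured, with list means from 10.7 to 11.4 over the 32 groups. The list means stayed at or below 5.55 for 11 granulocyte, 6 dendritic, 5 lymphocyte, 6 stromal and 2 erythroid genes, of which 8, 2, 1, 4 and 1 had a mean above 4.19. RNA was taken from whole wells, so fewer cells with a transcript and less of it per cell cannot be told apart.

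Several features of the arrays touch the results below. The C57BL/6 arrays at 0 h held LPS-induced transcripts: the mean of 10 such genes was 9.09 there and 5.16 in BALB/c at 0 h. Counts and many of the changes in C57BL/6 are therefore also given from 1 h. Nos2 read 10.63 and 10.45 in them and had a mean of 4.48 at 1 h of LPS 5 ng/ml. Probe sets without a gene parted the arrays into a larger set of 53 and a smaller set of 11, which held 1 array of 9 groups and both arrays of IFN-beta at 4 h. In a fit with this set as a term, Per1 was lower in the smaller set by 0.55 log2 (limma adjusted p = 1.4e-08), Per2 by 0.40 (adjusted p = 1.5e-05) and Cry1 by 0.30 (adjusted p = 0.00033), and Clock was higher by 0.26 (adjusted p = 3.4e-07). Per3, Nr1d2, Bhlhe40 and Bhlhe41 differed by 0.11 or less and did not pass. Values from the larger set alone rest on 1 array in each of the 9 split groups. In 5 groups the replicates disagreed by over 1.5 log2 for at least 10 genes, with 1 array set apart: LPS 50 and LPS 0.5 ng/ml at 1 h, LPS 5 ng/ml at 24 h in C57BL/6, and IFN-gamma at 2 and 4 h.

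Over all 6 courses, 23 of 240 single times of the 8 genes were called (9.58%), against 3.89% of those of all genes. Bhlhe40 accounted for 10 of them, 3 up and 7 down, Bhlhe41 for 5 down, Per1 for 4 down, Per2 for 2 down, Per3 for 1 down and Nr1d2 for 1 up. Clock and Cry1 had none by limma, although 13 and 10 of their 30 single times had an unadjusted p under 0.05. With the array set as a term 22 single times were called, 21 of them shared with the 23. The shares of all genes, here and below, include dim genes, while every array value of the 8 genes lay above 4.19.

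By time, under IFN-beta Per1 and Bhlhe40 were called at 2 h, 2 of 8 against 1.1% of all genes, and 5 of 8 at 4 h against 5.28%. Under IFN-gamma Per1 was called at 2 h, against 0.898%, and Bhlhe40 at 8 h, against 2.69%. With LPS in BALB/c 4 of 8 were called at 4 h, against 6.19%, and Bhlhe40 and Bhlhe41 at 8 h, against 12.6%. With LPS 50 ng/ml in C57BL/6 Bhlhe40 was called at 2 h, against 1.6%, Bhlhe41 at 4 h, against 3.09%, and 3 of 8 at 8 h, against 10.2%. Bhlhe40 alone was called at 2 h and 8 h of 5 ng/ml, against 1.54% and 10%, and at 2 h of 0.5 ng/ml, against 0.935%.

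**Figure D1:**
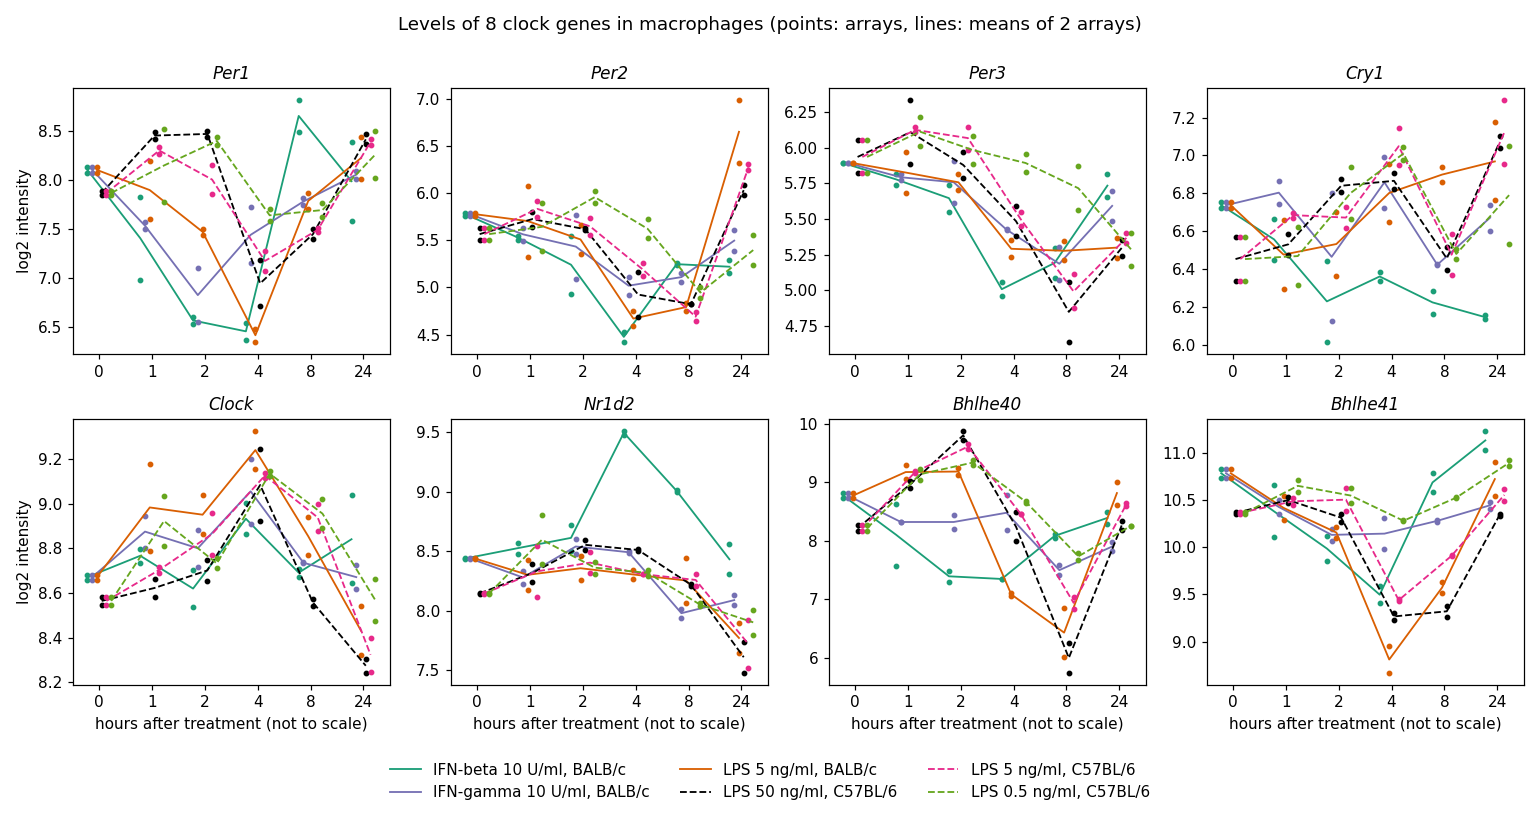
Log2 intensity of the 8 clock genes (vertical axes) against hours after treatment (horizontal axes, not to scale); points are single arrays, lines join the means of 2 arrays, solid for BALB/c and dashed for C57BL/6. Nr1d2 peaked at 4 h of IFN-beta (9.51 and 9.48), and Bhlhe40 was high at 2 h and low at 8 h of LPS 50 ng/ml (9.88 and 9.73 against 5.75 and 6.25).

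Per1, a core repressor of the loop, fell early under both interferons and at 4 h of LPS in BALB/c cells. Its BALB/c arrays read 8.13 and 8.08 at 0 h. Under IFN-beta they read 7.83 and 6.99 at 1 h, 6.54 and 6.60 at 2 h, 6.54 and 6.37 at 4 h, 8.82 and 8.50 at 8 h, and 8.39 and 7.59 at 24 h. The arrays of 2 and 4 h thus lay below all others of the course, and those of 8 h above both arrays of 0 h. Per1 fell 2.90-fold at 2 h (-1.54 ± 0.24, limma adjusted p = 1.3e-05) and 3.13-fold at 4 h (-1.65 ± 0.24, adjusted p = 6.6e-07). With the array set as a term the fall at 4 h was -1.10 (adjusted p = 5.8e-07), and the fall at 2 h, a group with no array of the smaller set, was the same. Counted from 1 h, the largest difference of the course was the higher level at 8 h, 1.25 ± 0.24 (adjusted p = 6.2e-10 for the course).

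Under IFN-gamma the Per1 arrays read 7.50 and 7.57 at 1 h, 7.10 and 6.55 at 2 h, 7.16 and 7.73 at 4 h, 7.74 and 7.82 at 8 h, and 8.02 and 8.10 at 24 h. The lowest values were those of 2 h, where Per1 fell 2.42-fold (-1.28 ± 0.24, adjusted p = 0.00038). The fall was -1.004 with the array set as a term. It was -1.003 in the larger set alone, where 2 h held 1 array, one of those that stood apart. From 1 h it was -0.71 and under the minimum change.

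Under LPS at 5 ng/ml the BALB/c arrays read 8.19 and 7.60 at 1 h, 7.51 and 7.44 at 2 h, 6.49 and 6.35 at 4 h, 7.87 and 7.71 at 8 h, and 8.44 and 8.01 at 24 h. Only the 4 h arrays lay under 7, and there Per1 fell 3.22-fold (-1.69 ± 0.24, adjusted p = 3.3e-07). In C57BL/6 cells the 0 h arrays read 7.89 and 7.85, and the lowest group mean of each dose again came at 4 h, with arrays of 7.18 and 6.71 with 50 ng/ml, 7.28 and 7.08 with 5 ng/ml, and 7.70 and 7.58 with 0.5 ng/ml. These changes from 0 h were -0.92, -0.69 and -0.23 ± 0.24 and none was called. From 1 h, where the arrays of LPS 50 ng/ml read 8.42 and 8.50, the falls at 4 h were -1.51 for 50 ng/ml (adjusted p = 1.6e-07 for the course), -1.13 for 5 ng/ml (adjusted p = 6e-05), both called, and -0.51 for 0.5 ng/ml.

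Per2, the partner of Per1 in the repressor complex, was low at 4 and 8 h of most courses and high at 24 h of the larger LPS doses. Its BALB/c arrays read 5.76 and 5.79 at 0 h, 4.42 and 4.53 at 4 h of IFN-beta, and 4.75 and 4.59 at 4 h and 4.83 and 4.75 at 8 h of LPS 5 ng/ml. None of these groups overlapped with 0 h. Per2 fell 2.46-fold at 4 h of IFN-beta (-1.30 ± 0.21, adjusted p = 4.1e-06) and 2.15-fold at 4 h of LPS (-1.11 ± 0.21, adjusted p = 4.7e-05). With the array set as a term the IFN-beta value was -0.90, no longer called, and the LPS value, with no array of the smaller set, was the same. Under IFN-gamma the lowest group was that of 4 h, 4.92 and 5.11, a change of -0.76 (adjusted p = 0.0089) that stayed under the minimum.

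At 24 h of LPS the Per2 arrays read 6.98 and 6.31 in BALB/c, and in C57BL/6 6.08 and 5.98 with 50 ng/ml, 6.24 and 6.30 with 5 ng/ml, and 5.55 and 5.24 with 0.5 ng/ml. In the 3 groups of 50 or 5 ng/ml both arrays thus lay above both 0 h arrays of their strain (5.50 and 5.63 in C57BL/6), and with 0.5 ng/ml they did not. The change from 0 h was 0.87 ± 0.21 in BALB/c (adjusted p = 0.00071), 0.71 with 5 ng/ml in C57BL/6 (adjusted p = 0.0071) and 0.47 with 50 ng/ml (adjusted p = 0.092), all under the minimum. In BALB/c it was 1.07 with the array set as a term, which was called. It was 1.21 in the larger set alone, where 24 h held 1 array. Counted from 1 h, the C57BL/6 values at 24 h were 0.44 with 5 ng/ml and 0.31 with 50 ng/ml. At 24 h of IFN-beta the arrays read 5.15 and 5.29 and at 24 h of IFN-gamma 5.61 and 5.38, below 0 h.

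Per3, the remaining Per gene, fell at 8 h of the highest LPS dose. The C57BL/6 arrays read 5.82 and 6.05 at 0 h. At 8 h they read 4.64 and 5.06 with LPS 50 ng/ml, 5.11 and 4.87 with 5 ng/ml, and 5.56 and 5.87 with 0.5 ng/ml, so the last group alone overlapped with 0 h. The fall was 2.13-fold with 50 ng/ml (-1.09 ± 0.14, adjusted p = 6.2e-08), and the value was -0.95 with 5 ng/ml (adjusted p = 1.1e-06), just under the minimum. It was -0.22 with 0.5 ng/ml. The call at 50 ng/ml was lost without replicate 1 of that group (-0.88), without replicate 2 of 0 h (-0.97) and with each array centred on its median (-0.92). Both 50 and 5 ng/ml were called at 8 h when counted from 1 h (-1.26 and -1.14). In BALB/c the arrays read 5.89 and 5.89 at 0 h and 4.96 and 5.06 at 4 h of IFN-beta, a change of -0.89 (adjusted p = 6.9e-06), also under the minimum. At 24 h of LPS Per3 stood at 5.37 and 5.23 in BALB/c and between 5.17 and 5.40 in the C57BL/6 groups, lower than at 0 h in every array.

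Cry1, the cryptochrome that represses CLOCK and BMAL1 together with the Per proteins, kept within 0.98 log2 over the 32 group means. Its arrays read 6.72 and 6.75 in BALB/c at 0 h and 6.14 and 6.15 at 24 h of IFN-beta, the lowest group, with a change of -0.59 ± 0.18 (adjusted p = 0.021). In C57BL/6 they read 6.34 and 6.57 at 0 h and 6.95 and 7.29 at 24 h of LPS 5 ng/ml, the highest group, with a change of 0.67 ± 0.18 (adjusted p = 0.0028). Neither reached the minimum change. Counted from 1 h, the C57BL/6 value was 0.44. At 24 h Cry1 was lower with IFN-beta than with LPS 5 ng/ml in BALB/c by 0.82 log2 (adjusted p = 4.5e-05 for the course). It was lower by 1.04 in the larger array set alone, where each of these groups held 1 array.

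Clock, the activator of the loop, moved least, with a span of 0.97 log2 between its highest and lowest group mean. In each of the 6 courses its highest group mean came at 4 h, with 9.16 and 9.33 under LPS 5 ng/ml in BALB/c against 8.66 and 8.68 at 0 h. Under IFN-beta, where both 4 h arrays were of the smaller set, the change at 4 h was 0.26 and was -0.0035 with the array set as a term. With LPS in BALB/c the change at 4 h was 0.57 ± 0.13 (adjusted p = 0.0005), and 0.52, 0.56 and 0.57 with 50, 5 and 0.5 ng/ml in C57BL/6 (adjusted p = 0.0024, 0.00097 and 0.0017). All 4 passed on p and stayed under the minimum change. Counted from 1 h, the C57BL/6 values at 4 h were 0.46, 0.42 and 0.21 with 50, 5 and 0.5 ng/ml. Replicate 2 of 50 ng/ml at 4 h was of the smaller set, in which Clock was higher by 0.26 log2. At 24 h of LPS the arrays read 8.32 and 8.54 in BALB/c and 8.31 and 8.24 with 50 ng/ml in C57BL/6, the lowest group.

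Nr1d2 was the member that rose under IFN-beta. Its BALB/c arrays read 8.44 and 8.43 at 0 h, 8.48 and 8.57 at 1 h of IFN-beta, 8.72 and 8.50 at 2 h, 9.51 and 9.48 at 4 h, 9.001 and 9.011 at 8 h, and 8.31 and 8.56 at 24 h. The arrays of 4 h were the highest of all 64, and those of 8 h the next. The rise was 2.08-fold at 4 h (1.05 ± 0.14, adjusted p = 1.1e-07), and the value at 8 h was 0.57 (adjusted p = 0.002). The rise at 4 h lay close to the minimum change: it was 0.9996 with the array set as a term and 0.97 counted from 1 h, both just short of a call, and 0.55 as the mean of both Nr1d2 probe sets. Under LPS the lowest Nr1d2 arrays were those of 24 h, 7.65 and 7.90 in BALB/c and 7.74 and 7.48 with 50 ng/ml in C57BL/6, against 8.14 and 8.15 at C57BL/6 0 h. These changes, -0.67 ± 0.14 (adjusted p = 0.00014) and -0.53 (adjusted p = 0.0022), were under the minimum. Counted from 1 h, the value with 50 ng/ml was -0.71.

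Bhlhe40 had the widest range of the 8 genes, 3.80 log2 or 13.9-fold between its highest and lowest group mean. In C57BL/6 its arrays read 8.26 and 8.16 at 0 h. With LPS 50 ng/ml they read 8.91 and 9.03 at 1 h, 9.88 and 9.73 at 2 h, 8.49 and 8.00 at 4 h, 5.75 and 6.25 at 8 h, and 8.19 and 8.33 at 24 h. The 2 h arrays were the highest of the course, the 8 h arrays the lowest, and the 24 h arrays lay close to those of 0 h. Bhlhe40 rose 3.01-fold at 2 h (1.59 ± 0.22, adjusted p = 9.5e-07) and fell 4.64-fold at 8 h (-2.21 ± 0.22, adjusted p = 6e-11).

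The other doses also had their highest group mean at 2 h and their lowest at 8 h. With 5 ng/ml the C57BL/6 arrays read 9.56 and 9.66 at 2 h and 7.05 and 6.83 at 8 h, a rise of 2.63-fold (1.40 ± 0.22, adjusted p = 1.3e-05) and a fall of 2.42-fold (-1.27 ± 0.22, adjusted p = 7.4e-06). With 0.5 ng/ml they read 9.39 and 9.29 at 2 h and 7.67 and 7.79 at 8 h, a rise of 2.18-fold (1.12 ± 0.22, adjusted p = 0.00067) and a change of -0.48 that did not pass. The falls at 8 h from 1 h were -2.97, -2.23 and -1.40 for 50, 5 and 0.5 ng/ml, each called, and no rise at 2 h reached the minimum.

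In BALB/c the Bhlhe40 arrays read 8.81 and 8.73 at 0 h. With LPS 5 ng/ml they read 9.05 and 9.30 at 1 h, 9.13 and 9.24 at 2 h, 7.05 and 7.12 at 4 h, 6.01 and 6.85 at 8 h, and 8.62 and 9.01 at 24 h. The arrays of 4 and 8 h lay far below the rest of the course. Bhlhe40 fell 3.22-fold at 4 h (-1.69 ± 0.22, adjusted p = 5.7e-08) and 5.06-fold at 8 h (-2.34 ± 0.22, adjusted p = 9.7e-12), and the values at 1 and 2 h were 0.40 and 0.41.

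Under IFN-beta Bhlhe40 read 8.63 and 7.57 at 1 h, 7.49 and 7.30 at 2 h, 7.35 and 7.34 at 4 h, 8.11 and 8.05 at 8 h, and 8.29 and 8.49 at 24 h. It fell 2.60-fold at 2 h (-1.38 ± 0.22, adjusted p = 2e-05) and 2.68-fold at 4 h (-1.42 ± 0.22, adjusted p = 2.1e-06), while the 1 h replicates disagreed by over 1 log2. Under IFN-gamma the lowest arrays came at 8 h, 7.41 and 7.59, a fall of 2.41-fold (-1.27 ± 0.22, adjusted p = 2.6e-05). Neither interferon's fall from 1 h reached the minimum (-0.75 at 4 h of IFN-beta and -0.82 at 8 h of IFN-gamma).

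Bhlhe41, the closest relative of Bhlhe40, fell at 4 and 8 h of LPS in BALB/c and of the highest dose in C57BL/6, and at 4 h of IFN-beta. Its BALB/c arrays read 10.83 and 10.74 at 0 h and, with LPS 5 ng/ml, 10.29 and 10.55 at 1 h, 10.10 and 10.22 at 2 h, 8.95 and 8.67 at 4 h, 9.52 and 9.63 at 8 h, and 10.55 and 10.90 at 24 h. The 4 h arrays were the lowest of all 64. The fall was 3.93-fold at 4 h (-1.98 ± 0.13, adjusted p = 5.6e-15) and 2.32-fold at 8 h (-1.21 ± 0.13, adjusted p = 8.2e-10).

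Under IFN-beta the Bhlhe41 arrays read 9.41 and 9.59 at 4 h and 11.04 and 11.24 at 24 h, the latter the highest of all groups. The fall at 4 h was 2.44-fold (-1.29 ± 0.13, adjusted p = 6e-10), -1.40 with the array set as a term, and -0.88 counted from 1 h, which was not called. Under IFN-gamma its largest change was -0.65 ± 0.13 at 2 h (adjusted p = 0.0017), under the minimum. In C57BL/6 the arrays read 10.36 and 10.38 at 0 h. With LPS 50 ng/ml they read 9.31 and 9.23 at 4 h and 9.27 and 9.38 at 8 h, falls of -1.10 and -1.04 ± 0.13 (adjusted p = 4.5e-08 and 3.2e-08). The value at 4 h was -0.99 with each array centred on its median, under the minimum. With 5 ng/ml the value at 4 h was -0.93 and with 0.5 ng/ml -0.08. Counted from 1 h, the values at 4 h were -1.24, -1.05 and -0.37 with 50, 5 and 0.5 ng/ml.

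**Figure D2:**
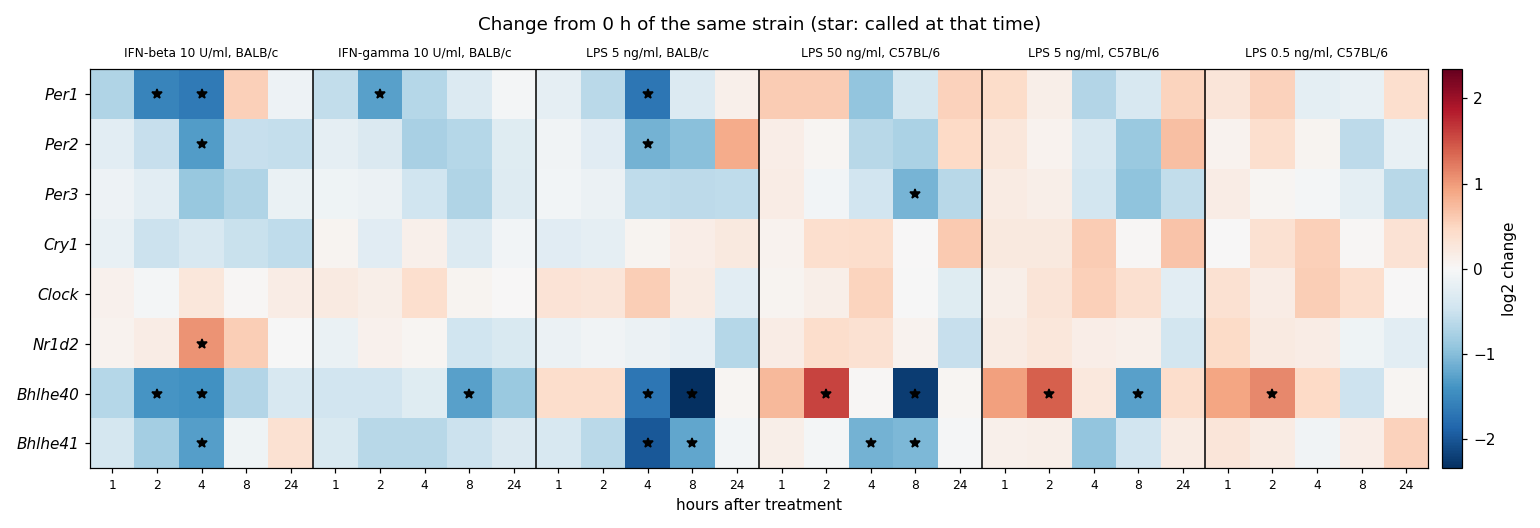
Log2 change from 0 h of the same strain (colour) for each of the 8 genes (rows) at each time in hours of the 6 courses (columns); a star marks a single time called by limma at an adjusted p under 0.05 and a change of at least 1 log2. The stars lie at 2, 4 and 8 h, 10 of them in the row of Bhlhe40, and none in the rows of Cry1 and Clock.

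By course, 5 of the 8 genes were called under IFN-beta, 1 up (Nr1d2) and 4 down (Per1, Per2, Bhlhe40, Bhlhe41), against 7.92% of all genes (4.05% up and 3.87% down). With the array set as a term 3 were called, as Per2 (-0.90) and Nr1d2 (0.9996) came under the minimum. Counted from 1 h 2 were called (Per1 up and Per2 down), against 6.49% of all genes. Under IFN-gamma 2 were called, both down (Per1 and Bhlhe40), against 5.37% (2.27% down), and none counted from 1 h by limma, where 6 had an unadjusted p under 0.05 and 4.54% of all genes were called. Under LPS 5 ng/ml in BALB/c 4 were called, all down (Per1, Per2, Bhlhe40, Bhlhe41), against 17.2% (9.72% down). In C57BL/6, 3 were called down with 50 ng/ml (Per3, Bhlhe40, Bhlhe41), against 15% (6.26% up and 8.73% down). Bhlhe40 alone was called with 5 and with 0.5 ng/ml, by its rise at 2 h, against 14.3% and 9.11% of all genes (5.88% and 4.02% up). With each array centred on its median, the share of all called genes that were up went from 43.4% to 56.5% with LPS in BALB/c, from 41.8% to 55.2% with 50 ng/ml and from 41.2% to 53.5% with 5 ng/ml, and the median of all genes moved to at most 0.19 log2 at any time. None of the called clock genes changed direction under it, but the count with 50 ng/ml went from 3 to 1, Bhlhe40, as Per3 (-0.92) and Bhlhe41 (-0.99 at 4 h) came under the minimum.

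With 1 h as the baseline, the C57BL/6 counts were 4 with 50 ng/ml (Per1, Per3, Bhlhe40, Bhlhe41), 5 with 5 ng/ml (those and Per2) and 1 with 0.5 ng/ml (Bhlhe40), all down, against 14.6%, 14.9% and 10.4% of all genes. With LPS in BALB/c the count was 4 (Per1, Per2, Bhlhe40, Bhlhe41), against 15%. The median largest change of the 8 genes was 1.17 log2 under IFN-beta, 0.68 under IFN-gamma and 0.89 under LPS in BALB/c, and 0.83, 0.78 and 0.56 with 50, 5 and 0.5 ng/ml in C57BL/6. Over all genes these medians lay between 0.32 and 0.42. The courses of 1 strain share their 0 h arrays, so their counts are not independent.

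Late in the LPS courses several of the fallen transcripts came back, a difference between 24 and 8 h that was tested after the values had been seen. In BALB/c the level at 24 h exceeded that at 8 h by 3.62-fold for Per2 (1.86 ± 0.21, adjusted p = 2.4e-09), by 5.22-fold for Bhlhe40 (2.38 ± 0.22, adjusted p = 2e-11) and by 2.22-fold for Bhlhe41 (1.15 ± 0.13, adjusted p = 7.9e-09), 3 of the 8 genes against 6.06% of all genes (3.28% up). Bhlhe41 stood at 0.97 in the larger array set alone, where 24 h held 1 array, under the minimum. With 50 ng/ml in C57BL/6 the same 3 genes were called, at 1.21, 2.26 and 1.02, against 6.21%, and with 5 ng/ml Per2 and Bhlhe40 at 1.58 and 1.68, against 5.86%. With 0.5 ng/ml and under IFN-beta and IFN-gamma none was called by limma, with 6, 4 and 1 of the 8 genes at an unadjusted p under 0.05, against 3.1%, 2.32% and 0.792% of all genes. Nr1d2 and Clock went the other way in the LPS courses. Nr1d2 was lower at 24 h than at 8 h by 0.48 to 0.61 log2 in BALB/c and with 50 and 5 ng/ml in C57BL/6 (limma adjusted p = 0.007, 0.00061 and 0.0024), under the minimum. Clock was lower by 0.42 in BALB/c (adjusted p = 0.0094). With 50, 5 and 0.5 ng/ml in C57BL/6 it was lower by 0.28, 0.61 and 0.39 (adjusted p = 0.096, 0.00018 and 0.027), also under the minimum.

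IFN-beta and IFN-gamma were compared at each time, and 2 of the 8 genes were called, against 3.96% of all genes (2.06% higher and 1.9% lower with IFN-beta). By limma's F-test 5 had an adjusted p under 0.05. Those under the minimum change were Bhlhe41 (0.69 at 24 h, adjusted p = 1.2e-05), Per1 (-0.99 at 4 h, adjusted p = 0.002) and Cry1 (-0.53 at 24 h, adjusted p = 0.021). Nr1d2 was higher with IFN-beta at 8 h, with arrays of 9.001 and 9.011 against 7.94 and 8.02, a 2.04-fold difference (1.03 ± 0.14, adjusted p = 7.4e-09). It was 1.00 at 4 h. Bhlhe40 was lower with IFN-beta at 4 h, 7.35 and 7.34 against 8.18 and 8.78, a 2.19-fold difference (-1.13 ± 0.22, adjusted p = 1.5e-05). Without the second of these IFN-gamma arrays, one of those that stood apart, it was -0.83 and not called. With the mean of both Nr1d2 probe sets the Nr1d2 difference was 0.52 and not called.

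The interferons were set against LPS in the same strain as well, again with p-values of the F-test. Between IFN-beta and LPS 4 of the 8 genes were called, against 14.3% of all genes (8.06% higher and 6.19% lower with IFN-beta). An adjusted p under 0.05 was found for 7, with Per1 (adjusted p = 0.0006), Cry1 (adjusted p = 4.5e-05) and Clock (adjusted p = 0.002) under the minimum change. Higher with IFN-beta were Nr1d2 at 4 h, by 2.28-fold (1.19 ± 0.14, adjusted p = 2.7e-10), and Bhlhe41 at 8 h, by 2.17-fold (1.12 ± 0.13, adjusted p = 4.8e-09). With the mean of both Nr1d2 probe sets the Nr1d2 difference was 0.53 and not called. Bhlhe40 was 3.46-fold lower at 2 h (-1.79 ± 0.22, adjusted p = 3.2e-11) but 1.65 higher at 8 h. Per2 was 2.69-fold lower at 24 h (-1.43 ± 0.21, adjusted p = 6.2e-06). The Bhlhe40 arrays of 2 h read 7.49 and 7.30 with IFN-beta and 9.13 and 9.24 with LPS, with no overlap.

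With IFN-gamma 4 of the 8 genes differed from LPS, against 13.6% of all genes (7.51% higher and 6.09% lower with IFN-gamma). After centring each array on its median the share of all called genes that were higher went from 55.2% to 46.8% here, and from 56.6% to 49.6% for IFN-beta against LPS. At 4 h Bhlhe40 was 2.63-fold higher with IFN-gamma (1.39 ± 0.22, adjusted p = 2e-09), Bhlhe41 2.52-fold (1.34 ± 0.13, adjusted p = 3.4e-10) and Per1 2.03-fold (1.02 ± 0.24, adjusted p = 0.0016). Per2 was 2.22-fold lower at 24 h (-1.15 ± 0.21, adjusted p = 0.00026). The Per1 call rested on single arrays: the value was 0.74 without replicate 2 of IFN-gamma at 4 h and 0.96 without replicate 2 of LPS at 4 h. Per2 stood at -0.82 without replicate 1 of LPS at 24 h.

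The LPS dose in C57BL/6 mattered most for Bhlhe40 and Bhlhe41 at 8 h. Bhlhe40 was 3.33-fold lower with 50 than with 0.5 ng/ml (-1.73 ± 0.22, adjusted p = 2.2e-06) and Bhlhe41 2.31-fold lower (-1.21 ± 0.13, adjusted p = 3.3e-10). Bhlhe41 arrays there read 9.27 and 9.38 with 50 ng/ml, 9.90 and 9.92 with 5 ng/ml and 10.53 and 10.52 with 0.5 ng/ml, in the order of the dose with no overlap. These were 2 of the 8 genes, against 3.72% of all genes (1.71% lower). Per3 passed the F-test over the 5 times (adjusted p = 0.00018), with its largest difference, lower by 0.87 log2, at 8 h, and so did Per2 (adjusted p = 0.0099), lower by 0.70 at 4 h, both under the minimum.

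Between 50 and 5 ng/ml none of the 8 genes was called by limma and 2 had an unadjusted p under 0.05, against 0.228% of all genes called. Between 5 and 0.5 ng/ml none was called and 4 had an adjusted p under 0.05 in the F-test over the 5 times, against 2.16%, of which 53.8% were higher with 5 ng/ml, or 64.9% after centring. Those 4 were Bhlhe41 (adjusted p = 7.3e-06), Per2 (adjusted p = 0.0079), Bhlhe40 (adjusted p = 0.044) and Per3 (adjusted p = 0.0023). Their largest differences were -0.84 at 4 h, 0.88 at 24 h, -0.79 at 8 h and -0.73 at 8 h. Per2 at 24 h was thus higher with 5 than with 0.5 ng/ml, whereas the other 3 were lower. Replicate 2 of 0.5 ng/ml at 24 h was of the smaller array set, in which Per2 was lower by 0.40 log2. Replicate 2 of 5 ng/ml at 24 h was among the arrays that stood apart.

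**Figure D3:**
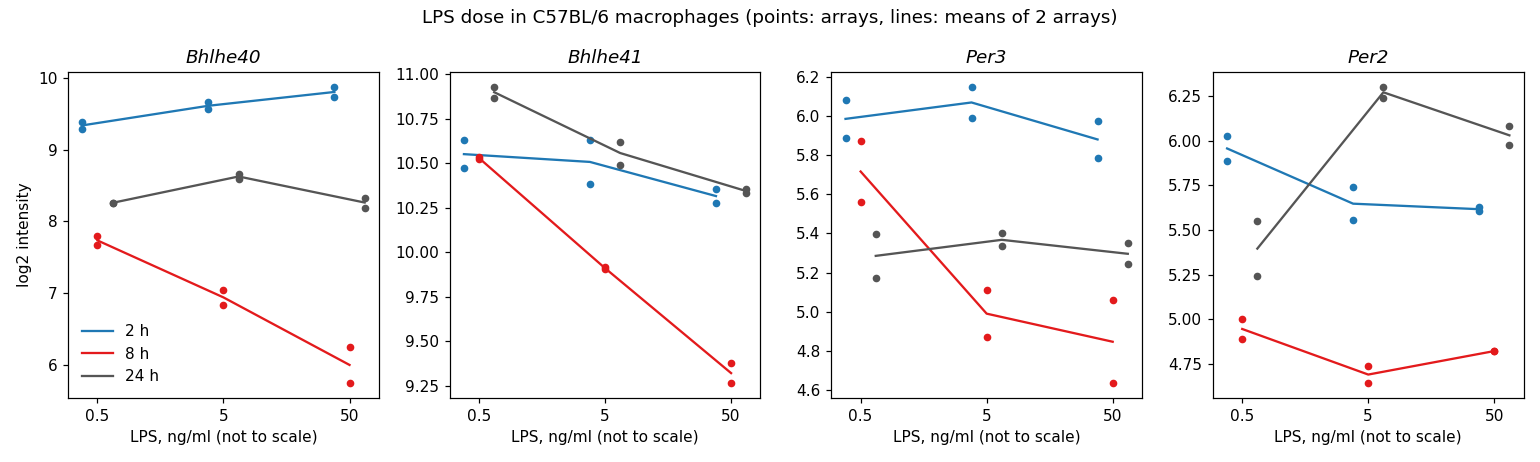
Log2 intensity of Bhlhe40, Bhlhe41, Per3 and Per2 (vertical axes) against the LPS dose in ng/ml (horizontal axes, not to scale) in C57BL/6 macrophages at 2, 8 and 24 h; points are arrays and lines join means of 2 arrays. At 8 h Bhlhe41 ran from 10.53 and 10.52 with 0.5 ng/ml to 9.27 and 9.38 with 50 ng/ml, and Bhlhe40 from 7.67 and 7.79 to 5.75 and 6.25.

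LPS 5 ng/ml was given to both strains. At 0 h none of the 8 genes was called between the strains by limma, against 2.36% of all genes called. An unadjusted p under 0.05 was found for 3 and an adjusted p under 0.05 for 1 (Bhlhe41, 0.42 ± 0.13 higher in BALB/c, adjusted p = 0.039). The C57BL/6 arrays of 0 h held LPS-induced transcripts, with a mean of 9.09 over 10 such genes against 5.16 in BALB/c. Their part in the strain values that use 0 h was not tested. Under LPS 1 gene was called, against 5.53% of all genes (2.01% lower in BALB/c): Bhlhe40 was 2.59-fold lower in BALB/c at 4 h, with arrays of 7.05 and 7.12 against 8.46 and 8.46 (-1.37 ± 0.22, adjusted p = 4.2e-05). Bhlhe41 (-0.63 at 4 h, adjusted p = 0.00053) and Per1 (-0.76 at 4 h, adjusted p = 0.019) passed the F-test under the minimum change. The change from 0 h differed between the strains for 2 genes by the F-test over the 5 times, against 4.68% of all genes (1.4% lower). For Bhlhe40 at 4 h it was -1.69 in BALB/c and 0.24 in C57BL/6, a difference of -1.93 ± 0.31 (adjusted p = 0.00018). For Bhlhe41 it was -1.98 against -0.93, a difference of -1.05 ± 0.19 (adjusted p = 0.00067). Per1 had a difference of -0.99 ± 0.33 at 4 h and was not called (F-test adjusted p = 0.083). With the array set as a term Per1 was called as well (adjusted p = 2.2e-05). Its value at 4 h was still -0.99 there, so another time reached the minimum. Counted from 1 h, where 3.77% of all genes were called, the Bhlhe40 difference was -1.37 ± 0.31 (adjusted p = 0.0026), still called, and that of Bhlhe41 was -0.56 and was not. The labels name no separate preparations within a strain, so strain and preparation cannot be told apart.

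Over the 32 group means the levels of Per3 and Bhlhe40 ran together (Pearson r = 0.75, Spearman rho = 0.74), as did those of Per1 and Bhlhe41 (r = 0.74, rho = 0.74) and of Per2 and Bhlhe40 (r = 0.70, rho = 0.76). Per2 and Clock ran against each other (r = -0.58, rho = -0.48). Nr1d2 ran against Cry1 (r = -0.51, rho = -0.36), and its highest r was 0.45, with Clock (rho = 0.31). These values describe 32 groups that share courses, strains and array sets, and Per1, Per2, Cry1 and Clock also share the difference between array sets given above. Among all other named genes, the 3 most like Per1 over these groups were Plk3, Irf2bp2 and Map2k3os (r from 0.80 to 0.84), and those most like Per2 were Jade1, Nisch and Ankrd13d (0.84 to 0.86). For Per3 they were Bora, Ddx11 and Zhx3 (0.89 to 0.91), for Nr1d2 Sms, Uaca and Rell1 (0.85 to 0.86), for Bhlhe40 Trim24, Rev3l and Hilpda (0.86 each) and for Bhlhe41 Cd300lb, Zmynd8 and Gba2 (0.85 to 0.86). Cry1 and Clock, with spans under 1 log2, were left out of that search.

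Neighbours in the order of the 32 group means were further apart than the pooled SD of replicates in 5 of 31 cases for Bhlhe40, 4 for Bhlhe41, 2 for Per2 and for Nr1d2, 1 for Per1, Per3 and Clock, and 0 for Cry1. The pooled SD was 0.25 for Per1, 0.21 for Per2, 0.23 for Bhlhe40, 0.18 for Cry1 and between 0.12 and 0.14 for the other 4.

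Another 30 genes of the clock and its modifiers were listed, of which 27 were measured. In the order IFN-beta, IFN-gamma and LPS in BALB/c, 3, 3 and 3 were called up and 2, 2 and 6 down. With 50, 5 and 0.5 ng/ml in C57BL/6, 4, 4 and 3 were called up and 5, 4 and 3 down. The percentages of all genes called are those given for each course above. Noct, an enzyme with a rhythmic transcript, rose in all 6 courses, by 3.79 ± 0.18 at 2 h of LPS in BALB/c (13.8-fold, adjusted p = 3.9e-23) and by 3.10, 2.72 and 1.54 at 2 h of 50, 5 and 0.5 ng/ml in C57BL/6. Nfil3, a repressor acting at D-boxes, also rose in all 6, most under IFN-beta at 2 h (3.54 ± 0.28, 11.6-fold, adjusted p = 4.2e-14). Counted from 1 h, Nfil3 was not called in the 3 C57BL/6 courses (0.67, 0.72 and 0.97), while Noct remained called in each, with its largest difference under 5 ng/ml then a fall of 1.56 log2. Nampt, which makes the NAD that sirtuins use, rose by 1.32 to 1.72.

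The activator Npas2, a relative of Clock, fell in all courses but IFN-beta, by 2.73 log2 at 8 h of LPS 50 ng/ml (6.64-fold, adjusted p = 1.4e-22). Wee1, a cell cycle kinase and clock target, fell by 2.08 to 2.77 at 24 h in the 4 LPS courses. Tipin, a replication fork protein that partners Timeless, fell in all courses but IFN-gamma. Cry2 fell under both interferons at 4 h (-1.27 ± 0.17 and -1.17 ± 0.17, adjusted p = 9.9e-07 and 4.5e-07) and was not called in any LPS course. The deubiquitinase Usp2 fell at 4 h by 1.29 to 1.34 in 3 of the LPS courses, all but 0.5 ng/ml. It was 2.21-fold higher in BALB/c than in C57BL/6 at 0 h (limma adjusted p = 1.2e-08), where the C57BL/6 arrays held LPS-induced transcripts. Bmal1, listed as Arntl and named after its values were seen, was called in none of the 6 courses, but at 4 h it was 1.01 lower with IFN-gamma than with LPS (adjusted p = 1.4e-06).

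**Figure D4:**
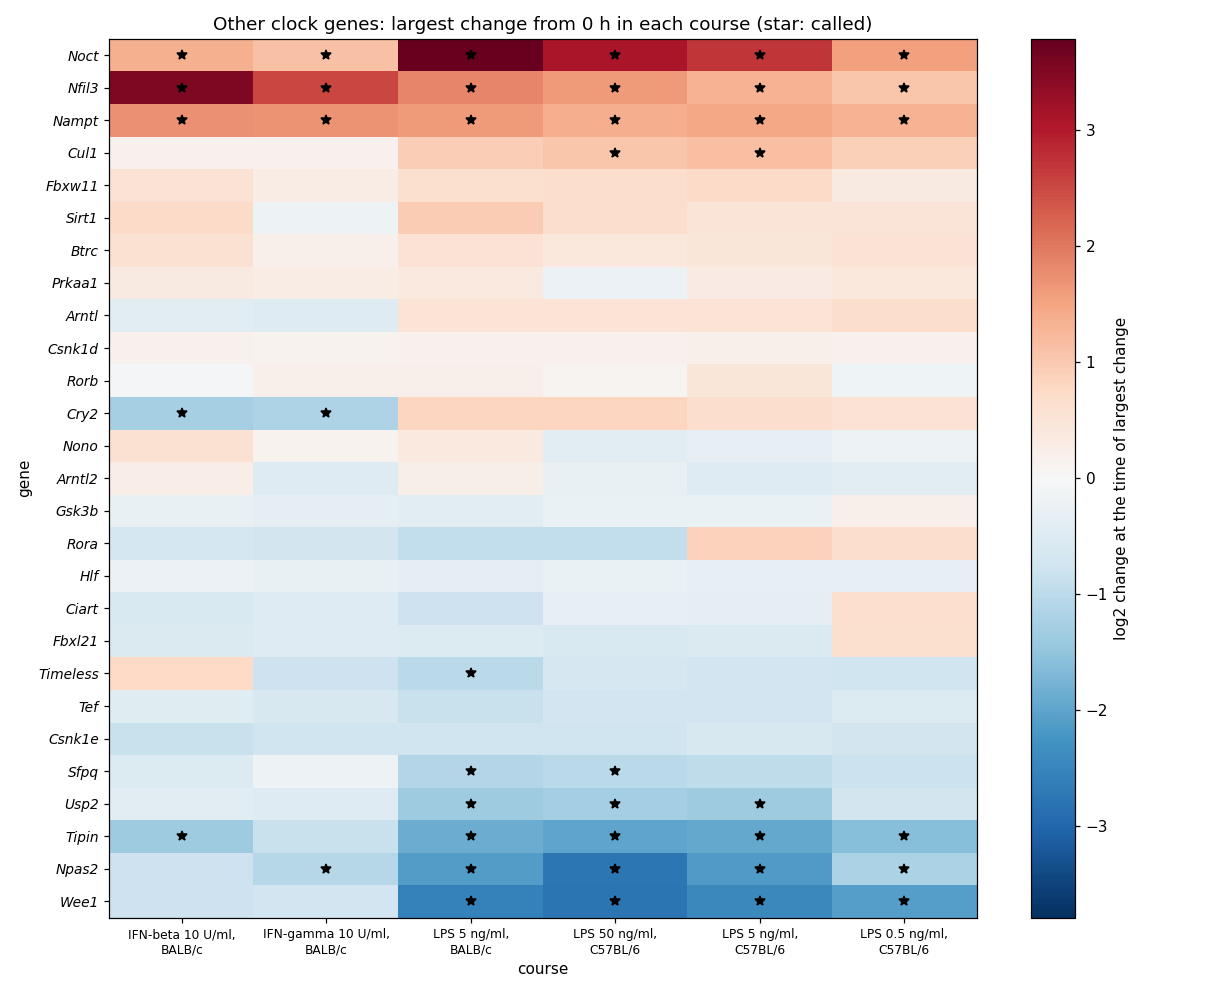
Largest log2 change from 0 h (colour) of 27 other clock genes (rows, ordered by their mean) in each of the 6 courses (columns); a star marks a gene called by limma at an adjusted p under 0.05 and a change of at least 1 log2. Noct, Nfil3 and Nampt carry stars in every course, and Wee1 in the 4 LPS courses.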

How the data were processed

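Intensities of 64 Affymetrix arrays were used as deposited. The authors' deposited intensity values are on a linear scale, from 2.49 to 17782, and Affymetrix Expression Console 1.1 is named in the submitters' processing notes. The background correction, normalisation and summary of probes are not given in the sources used here. Of 35556 probe sets, 21218 had 1 gene symbol, 1881 several and 12457 none. The brightest probe set with 1 symbol stood for each of 18820 genes, without a filter on dim genes.

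Log2 values were fitted with limma 3.58.1 in R 4.3.3, with 1 mean per group over all 64 arrays and 32 residual degrees of freedom. Each comparison was an F-test over its times, and single times were tested with the moderated test, both adjusted by Benjamini-Hochberg over all genes. Calls needed an adjusted p under 0.05 together with a difference of at least 1 log2, with its direction from the time of the largest difference. Replicates correlated at r from 0.992 to 0.998. The scripts were tested on simulated data. Alternatives covered scaling, dim genes, the choice of probe set, the samples fitted, limma's settings, the minimum change, the replicate number, the array set and the baseline. The 8 genes and the other lists, including the other clock genes, were chosen with earlier results of these data known. The genes named were all members, up to 6 called genes per course of the other clock genes, and for likeness the 3 genes with the highest Pearson correlation. The contrast of 24 with 8 h was added after the values were seen. Probe sets shared between symbols were left out, which removed Nr1d1 and Dbp.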

Additional observations from a re-analysis of the deposited data

Results flagged for a closer look

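The change from 0 h under LPS 5 ng/ml differed between BALB/c and C57BL/6 for 2 of the clock genes, by limma's F-test of the strain difference over the 5 times together. The largest difference of both came at 4 h, which was not tested on its own. For Bhlhe40 the difference was -1.93 log2 (adjusted p = 0.00018), from -1.69 in BALB/c and 0.24 in C57BL/6. For Bhlhe41 it was -1.05 (adjusted p = 0.00067), from -1.98 and -0.93. With the array set as a term Per1 was called as well (F-test adjusted p = 2.2e-05). The C57BL/6 arrays at 0 h held LPS-induced transcripts, with a mean of 9.09 over 10 such genes against 5.16 in BALB/c, and their part in these values was not tested. Counted from 1 h, Bhlhe40 was at -1.37 (adjusted p = 0.0026) and Bhlhe41 at -0.56 (adjusted p = 0.023), under the minimum change.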

How the results depend on the processing

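Of the values of called clock genes, 395 kept their direction and call under the alternatives other than leaving out an array and 19 lost the call. When 1 array was left out 493 kept and 7 lost it, and none reversed. Most of these fits left out an array of another time than that of the difference. The difference then could not change, so the 493 say little about how firm the calls are. The 395 include 31 from dropping the minimum change, where no call could be lost. They also include 31 from fitting all probe sets, where each gene kept its probe set. The filter on dim genes, limma's settings, fitting only the arrays compared and the replicate block gave 31 each. Those 4 settings could change p-values but not the differences. With each array centred on its median, 1 gene was called under LPS 50 ng/ml. With the mean of all probe sets, 1 differed between the interferons. Without a minimum change, 6 were called under IFN-gamma, 7 under LPS in BALB/c, and 8 with each dose in C57BL/6. Between the interferons there were then 5, between IFN-beta and LPS 7, between 50 and 0.5 ng/ml 5, between 5 and 0.5 ng/ml 4, between the strains 3 under LPS and 1 at 0 h, and 77 single times. In the strain response Per1 was called as well with the array set as a term. With the array set as a term 3 were called under IFN-beta, also without the 5 arrays that stand apart, where 1 differed between the interferons. In the larger set alone, which lacks IFN-beta at 4 h, 2 were called under IFN-beta and 1 between the interferons. Counted from 1 h there were 2 under IFN-beta, 0 under IFN-gamma, 5 under LPS 5 ng/ml in C57BL/6 and 1 in the strain response.

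Leaving out 1 array at a time gave 1 to 3 genes between the interferons, 1 to 2 in the strain response, 1 to 2 under LPS 5 ng/ml in C57BL/6, 0 to 1 between 5 and 0.5 ng/ml, 2 to 4 under LPS 50 ng/ml, 2 to 3 between 50 and 0.5 ng/ml, 4 to 5 between IFN-beta and LPS, 3 to 4 between IFN-gamma and LPS, and 21 to 25 single times. Between the interferons 1 remained without replicate 2 of IFN-gamma at 4 h, and in the strain response 1 without replicate 2 of LPS at 4 h in BALB/c. Under LPS 5 ng/ml in C57BL/6 there were 2 without replicate 1 of 0 h or replicate 1 of 8 h, and between 5 and 0.5 ng/ml 1 without replicate 1 of 0.5 ng/ml at 24 h.

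Over all genes, 43 were called between 50 and 5 ng/ml, 13 when only those arrays were fitted, 72 in the larger set, 147 without replicate 2 of 50 ng/ml at 1 h and 121 without replicate 1 of 5 ng/ml at 24 h. Under IFN-beta 1490 genes were called and 977 in the larger set. Without the minimum change the counts of all genes rose by more than 1.5 times in every comparison, from 1490 to 7037 under IFN-beta, 3231 to 8979 under LPS in BALB/c and 43 to 181 between 50 and 5 ng/ml, for example.

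With the replicate number as a block, 5 genes were called under IFN-beta, as without it, and no call of a clock gene changed. Each group held 1 array of each number, so the block left every difference as it was and could change p-values only. The correlation between groups of the difference between replicates 1 and 2 had a median of 0.0046 over 496 pairs of groups, from -0.47 to 0.55. Of these pairs 9.27% were over 0.1. In the groups split by array set, the array of the smaller set was replicate 2 in all but IFN-gamma at 4 h. Replicate number and array set thus overlapped in part. The causes of these shifts were not tested. With 2 arrays per group, the number of arrays limits the precision.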
